A study of Mus musculus with 6 samples.

Results

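The comparison described here set heart endothelial cells in which both copies of Dll4 had been targeted (KO, 2 libraries) against cells with intact Dll4 (wt, 2 libraries), 4 of the 6 libraries of the series. The members were taken from the labels by genotype, and all expressed genes were compared between them. All embryos carried Pdgfb-iCreERT2-IRES-EGFP, in which the endothelial gene Pdgfb drives a Cre recombinase that tamoxifen switches on, together with a green fluorescent marker. The wt embryos came from crosses of such mice with wild-type females and held no floxed Dll4 allele, so they carried Cre without a target. The KO embryos came from Dll4flox/flox Pdgfb-iCre-ERT2-EGFP mice crossed with Dll4 flox/flox females. Cells of the 2 remaining libraries (het) could lose 1 of their 2 copies. They are given beside the others as a description and entered the fit, where they added to the estimate of the spread. In every group tamoxifen was given at E13.5 and hearts were collected at E14.5, which left 1 day for recombination and its consequences. Sorting kept cells with CD31 and the green marker, so each sample mixed arterial, venous, capillary and endocardial cells in unknown shares. In such bulk samples fewer cells of a type and less RNA per cell cannot be told apart.

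Dll4 is a transmembrane ligand that activates Notch receptors on the neighbouring endothelial cell. Cleavage of the receptor releases an intracellular domain, which enters the nucleus, joins the DNA-binding protein Rbpj and a Mastermind coactivator, and turns on genes of the Hes and Hey repressor families. In blood vessels this pathway restrains sprouting and favours arterial identity, and in the embryonic heart it acts while coronary arteries assemble from a plexus of capillary and venous-like cells. Myc is a transcription factor that, paired with Max, raises genes of ribosome production, nucleotide synthesis and glycolysis. The title of the series links arterial development to the suppression of cell growth, and this comparison asks how the expression of both changes when Dll4 is lost.

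The wt libraries held 2521534 and 1732136 counts and the KO libraries 6501798 and 4988014, with between 13741 and 14839 genes above 0 in each of the 6 libraries. The KO libraries also differed from the other 4 in makeup. Lars2, a gene that contains sequence resembling ribosomal RNA, took between 16.3% and 17.1% of counts in the wt and het libraries and 0.0572% and 0.0611% in the KO libraries, and 7SL RNA and mitochondrial ribosomal RNA were lower as well. No preparation date is given in the labels, so genotype and a possible preparation batch cannot be told apart, which holds for every difference below. The replicates are separate samples per the labels, which do not say which litter each came from, so the p-values measure the spread between these samples. With 2 libraries a group, an exact permutation test of a single value cannot go below 0.333, and tests rest on the spread shared across genes and groups. Levels below are CPM, counts divided by library sizes that were scaled by trimmed means (TMM), given for the libraries of a group in the order of their labels. A gene rose or fell where edgeR's quasi-likelihood test, adjusted by the Benjamini-Hochberg method over all genes tested, gave an adjusted p under 0.05. Where a count is 0, the brackets after it give how many genes had an unadjusted edgeR p under 0.05 in that direction, and how many DESeq2 and limma-voom called, in this order.

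Loss of Dll4 was followed by a broad change. Of 10952 genes tested, 3509 were called (32%), of which 1610 rose (14.7%) and 1899 fell (17.3%). At least 2-fold rises numbered 313 (2.86%) and at least 2-fold falls 916 (8.36%). These percentages over all genes are the background for every count of a gene group below. Both KO libraries lay above both wt libraries for 3632 genes (33.2%) and below both for 3778 (34.5%). Over all genes tested the median log2 fold change was -0.02, and 45.9% of the calls were rises. When libraries were scaled by their totals alone the median moved to 0.35 and 3878 genes rose while 1034 fell (78.9% rises). With Lars2 and other genes of the makeup difference removed, 1672 of 10842 genes rose and 1884 fell, and the median was -0.007. How much of the shift under scaling by totals came from that makeup was not tested. Directions below are relative to the bulk of genes. Functional groups were described by 98 lists of 2496 genes, of which 2215 passed the filter on low counts. Where scaling by totals turned the majority of calls in a list counted below, this is stated beside it. Symbol families, transcript classes and bins of transcript properties were not recounted with that scaling, so whether their balance would turn was not tested. The count was 2043 without wt replicate 4, with 984 rises and 1059 falls, and without wt replicate 5 there were 1048 rises.

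**Figure D1:**
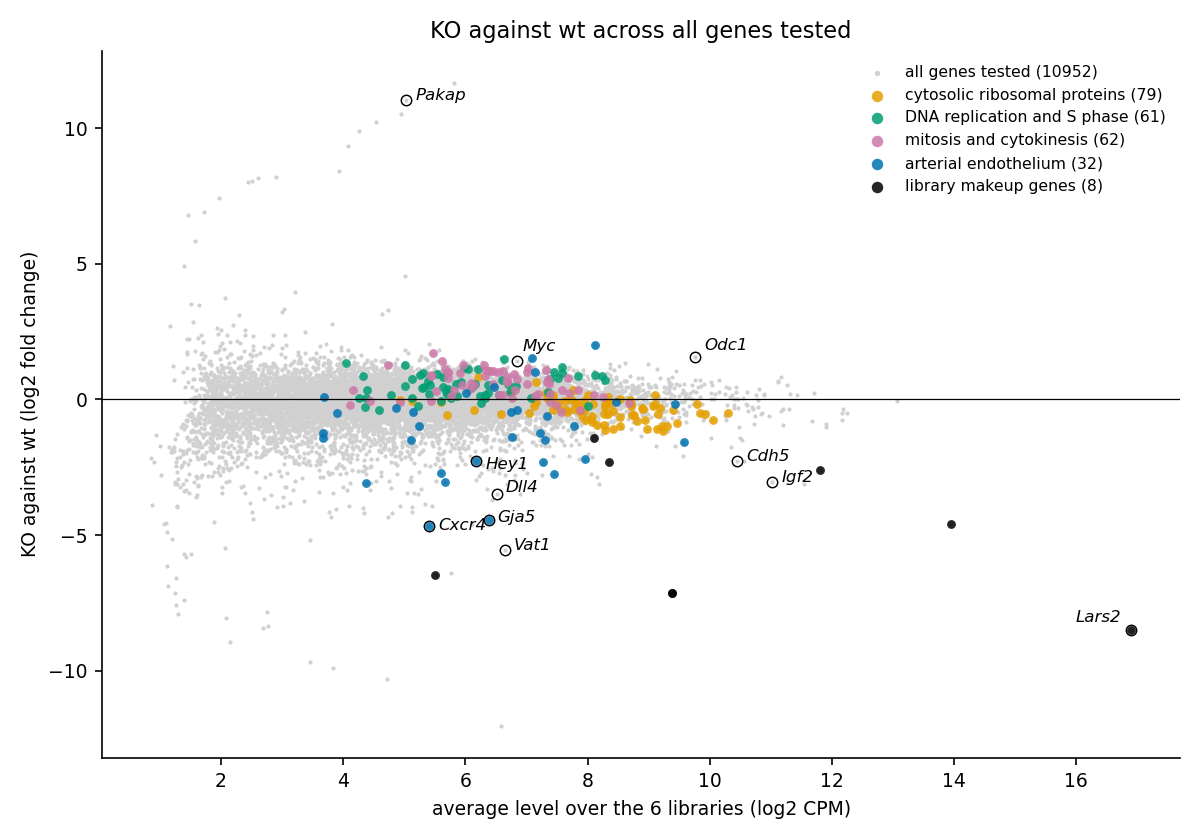
Log2 fold change of KO against wt (vertical axis) for each of 10952 genes against its average level over the 6 libraries in log2 CPM (horizontal axis). Coloured points are members of 5 gene lists, and circled points are single genes named in the text. Arterial genes lie mostly below 0, and replication and mitosis genes mostly above it. Genes at 0 in 1 group have fold changes set by the small count that edgeR adds.

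The targeted gene followed the labels. Dll4 (ENSMUSG00000027314; chromosome 2, 119325784 to 119335962, GRCm38) stood at 196 and 183 CPM in the wt libraries, 81.2 and 85.9 in the het libraries and 19.4 and 13.7 in the KO libraries. The 3 genotypes did not overlap. The log2 fold change of KO against wt was -3.50 ± 0.16 (SE), an 11.3-fold fall with edgeR adjusted p = 2.01e-12. Of the other 4 ligand genes tested none rose (0, 0 and 0) and none fell (1, 0 and 0). With scaling by totals 2 of the 5 ligand genes tested rose and 1 fell. The ligand gene Jag1 stood at 43.7 and 51.9 CPM in wt and 31.8 and 37.2 in KO, with the KO libraries lower in both but edgeR adjusted p = 0.0754, and Dll1 stood at 5.14 and 6.96 in wt and 12.1 and 7.97 in KO (adjusted p = 0.174).

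Among the 3 receptor genes tested, Notch1 fell and the others did not pass. Notch1, the main endothelial receptor, stood at 405 and 329.7 CPM in wt and 153 and 108 in KO. Both KO libraries were below every wt and het library (343 and 321 in het), and the log2 fold change was -1.49 ± 0.16 (edgeR adjusted p = 4.99e-05). Notch2 stood at 3.42 and 2.53 CPM in wt and 1.95 and 1.19 in KO (adjusted p = 0.382). Of 25 genes that process receptors or carry the signal, 5 rose and 7 fell, near the background in both directions. With scaling by totals 10 rose and 4 fell, and without wt replicate 4 or without KO replicate 2 the falls numbered 4. The coactivator genes Maml1 and Maml2 fell 3.86-fold and 2.2-fold. Spen, which encodes a corepressor that binds Rbpj, fell 2.37-fold, and the secretase gene Psen2 2.71-fold. The genes of the receptor-cleaving proteases, Adam17 and Adam10, rose 1.99-fold and 1.54-fold, and Ncstn, a secretase subunit, rose 1.42-fold. The DNA-binding partner Rbpj itself stood at 41.5 and 43.0 CPM in wt and 33.2 and 33.1 in KO and was not called.

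Direct Notch target genes were lower. Of 7 tested, 5 fell and none rose (0, 0 and 0), against 17.3% of all genes that fell, and the median log2 fold change was -0.97 against -0.02. Hey1, a repressor of the Hey family, stood at 114 and 120.2 CPM in wt, 86.2 and 91.1 in het and 26.2 and 21.5 in KO. No library of one genotype reached another, and the fall from wt to KO was 4.86-fold (log2 fold change -2.28 ± 0.16, edgeR adjusted p = 6.39e-10). Hes1, a repressor of the Hes family, did not follow allele number. It stood at 98.5 and 96.8 CPM in wt and 49.2 and 50.4 in KO, a fall of 1.96-fold (adjusted p = 7.08e-05), but at 184 and 129 in the het libraries, above both wt libraries. Efnb2, the arterial ephrin ligand, fell 1.99-fold. Heyl and Nrarp also fell (4.91-fold and 1.36-fold), but without wt replicate 4 their edgeR adjusted p were 0.0654 and 0.409, which left 3 falls. Without wt replicate 5 Heyl had adjusted p = 0.0738, without KO replicate 2 it had 0.0824, and without KO replicate 1 Nrarp had 0.156. Hey2 stood at 12 and 12 CPM in wt and 6.75 and 7.12 in KO and was not called (adjusted p = 0.138).

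Arterial genes fell as a group. Of 32 tested genes on a list of arterial endothelium, 20 fell and none rose (0, 0 and 3), and the median log2 fold change was -1.11. The 3 rises by limma-voom were the matrix genes Eln, Fbln2 and Fbln5, whose wt libraries differed from each other, Eln at 25.7 and 282 CPM in wt and 368 and 811 in KO (edgeR adjusted p = 0.339). They are named here after their values were seen. Gja5, for connexin 40 of arterial gap junctions, stood at 197 and 182 CPM in wt, 57.0 and 78.9 in het and 6.88 and 11 in KO. The genotypes were separate and in the order of intact alleles, and the log2 fold change of KO against wt was -4.43 ± 0.20 (edgeR adjusted p = 1.44e-11). Gja4, the gene of connexin 37, which is also enriched in arteries, went from 244 and 266 CPM in wt through 158 and 183 in het to 45.5 and 57.8 in KO, 4.95-fold lower. Gja1, the gene of the widely expressed connexin 43, stood at 303 and 264 CPM in wt and 334 and 362 in KO. Its rise of 1.23-fold was lost when wt replicate 5, or either KO replicate in turn, was left out (edgeR adjusted p = 0.280, 0.0587 and 0.224). The other 2 connexin genes tested were not called.

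Cxcr4, the receptor for the chemokine that guides coronary artery assembly, had the largest fall on the arterial list. It stood at 93.3 and 74.0 CPM in wt, 53.4 and 57.9 in het and 2.34 and 4.41 in KO, and the log2 fold change of KO against wt was -4.67 ± 0.25. For Unc5b, a netrin receptor gene, the libraries gave 286 and 257, 231 and 231 and 42.9 and 38.2 CPM in the same order of genotypes. In both genes the KO libraries were far below the rest, and the het libraries lay below wt by much less. Epas1, the gene of the oxygen-sensitive factor HIF-2α, fell 4.56-fold and the transporter gene Slc45a4 8.25-fold. The median level of the 32 genes, as log2(CPM + 1) against the mean of the wt libraries, was -0.36 and -0.37 in the het libraries and -1.16 and -0.94 in the KO libraries. Scaling by totals left 16 falls against 2 rises. Genes whose longest transcript holds a run of 6 cytosines fell more often than others in these data, as described further on. Among the 15 arterial genes without such a run 9 fell, with a median of -1.24.

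**Figure D2:**
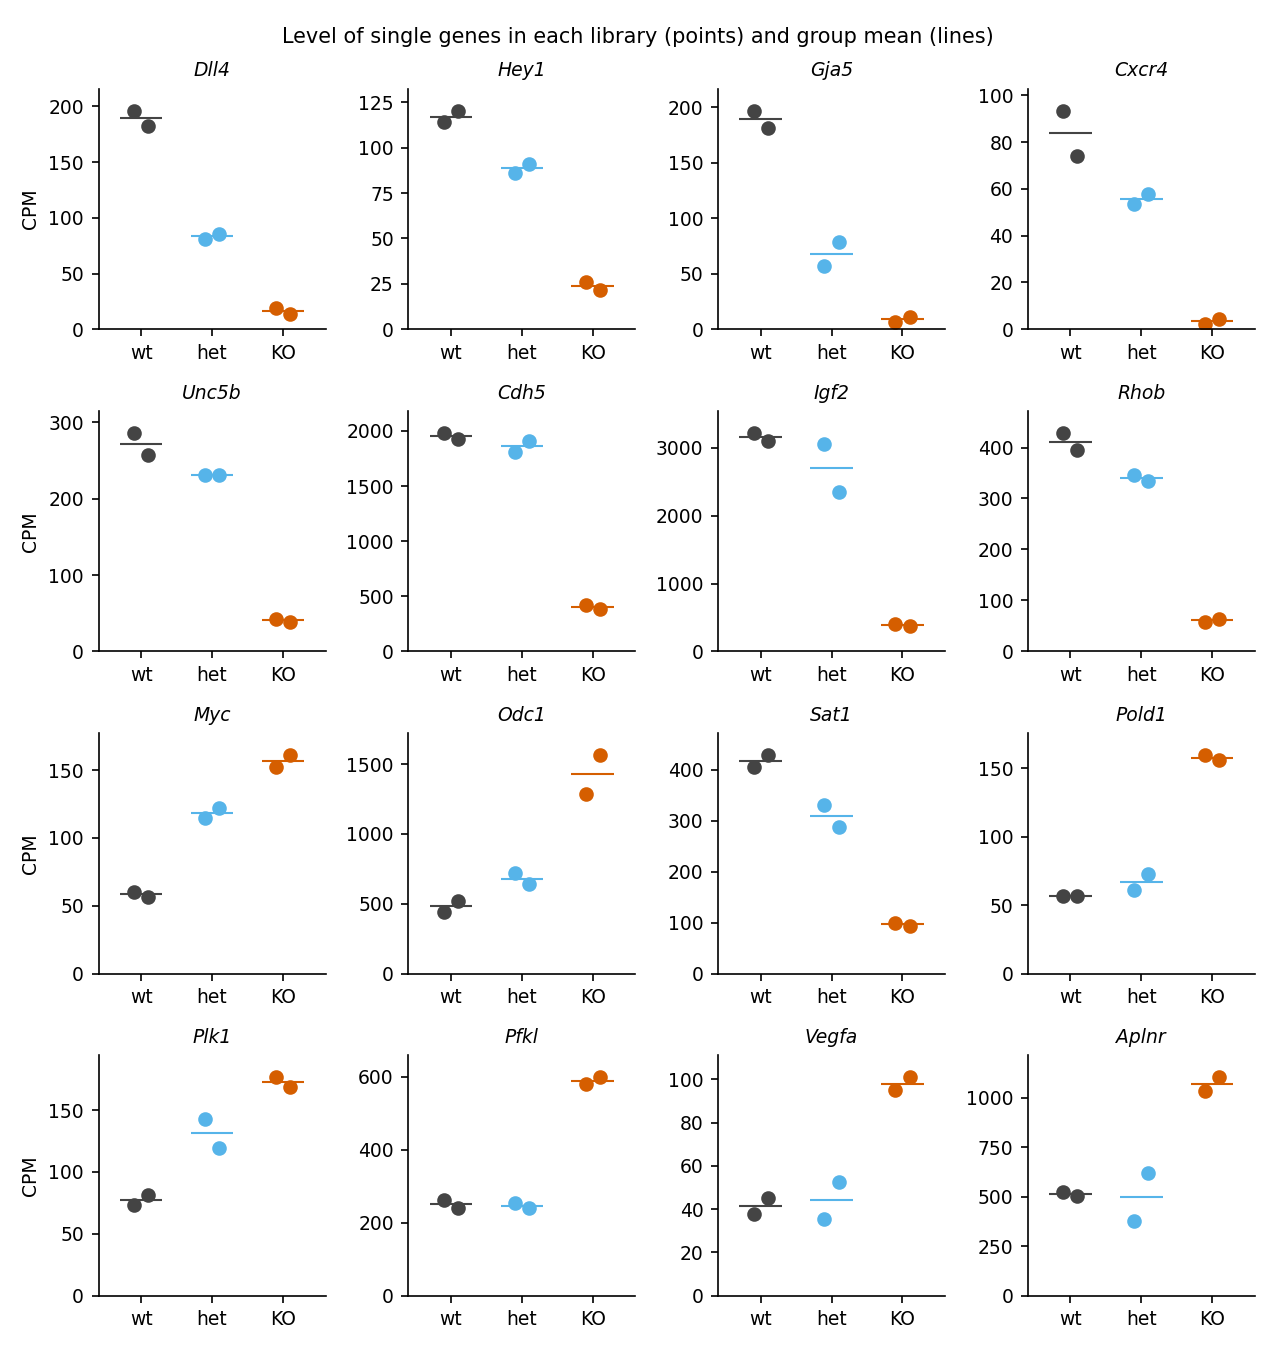
Level in CPM (vertical axes, each from 0) of 16 genes in the 2 wt, 2 het and 2 KO libraries; points are libraries and lines are group means. Dll4, Gja5, Hey1 and Cxcr4 step down with the number of intact alleles, Cdh5, Igf2, Rhob and Sat1 are far lower in KO than in wt or het, and Myc is raised in het as well as in KO.

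Venous and tip cell genes moved in both directions. On the venous list 3 of 11 rose and 3 fell. Nr2f2, which encodes a nuclear receptor that promotes venous identity, stood at 61.6 and 46.8 CPM in wt and 19.9 and 21.9 in KO, so its fall of 2.63-fold (edgeR adjusted p = 1.23e-05) went the same way as the arterial genes. Ephb4, the venous receptor for ephrin-B2, went the other way, from 196 and 195 CPM to 337 and 311, a rise of 1.66-fold (adjusted p = 1.46e-05). Aplnr, the apelin receptor gene of the venous plexus, stood at 523 and 504 CPM in wt, 377 and 622 in het and 1034 and 1103 in KO. Its rise had adjusted p = 0.0342 and was lost without any 1 of the 4 libraries (adjusted p between 0.117 and 0.178), and the list had 1 rise without wt replicate 5 or KO replicate 2, and 2 rises and 1 fall without wt replicate 4.

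Of 20 tip cell genes 8 rose and 6 fell. Adm, the gene of the vessel-forming peptide adrenomedullin, stood at 42.4 and 38.0 CPM in wt and 107 and 118 in KO (log2 fold change 1.48 ± 0.16), Apln, which encodes apelin, rose 1.80-fold, and the basement membrane gene Nid2 2.17-fold. The tip cell genes Igfbp3 and Unc5b fell, and so did Sox4 (2.03-fold). Of 14 genes of fatty acid uptake and other capillary functions, 6 fell and 1 rose, although scaling by totals gave 4 and 5 and without wt replicate 4 the falls numbered 4. Rbp7 fell 3.12-fold, Gpihbp1, the anchor of lipoprotein lipase, 1.76-fold, and the water channel gene Aqp1 1.61-fold.

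Endothelial identity as such was marked by a few large changes. Pecam1, the gene of the CD31 antigen used for sorting, stood at 834 and 818 CPM in wt and 844 and 892 in KO and was not called. Cdh5, which encodes the adhesion protein VE-cadherin, stood at 1981 and 1928 CPM in wt, 1808 and 1909.7 in het and 421 and 381 in KO. The 4 libraries with an intact copy lay close together and the KO libraries 4.87-fold below wt (log2 fold change -2.29 ± 0.09, edgeR adjusted p = 1.87e-13). Erg, an ETS factor that maintains endothelial genes, fell 2.39-fold, and Eng, a coreceptor for BMP ligands, 1.56-fold. Tek, the angiopoietin receptor gene, rose 1.71-fold. Over the 25 identity genes 10 fell and 3 rose, but with scaling by totals 11 rose and 4 fell, and without wt replicate 4 there were 6 falls. On the list of 24 junction genes, 8 fell and 3 rose, against 4 and 7 with scaling by totals and 4 falls without wt replicate 4, and 1 rise without wt replicate 5. Beside Cdh5 the falls included Pkp4, an armadillo-repeat protein of junctions (4.05-fold), and Ptprb, the endothelial phosphatase that acts on VE-cadherin and Tie receptors (1.66-fold). The Ptprb call was lost with trends of GC content and transcript length removed.

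Most guidance genes that changed were lower in KO. On the ephrin list 3 of 10 fell and Ephb4 rose, with Efna1 at 309 and 277 CPM in wt and 128 and 116 in KO. Of 12 genes of netrin, Slit and Robo signalling 4 fell and none rose (1, 0 and 0). Ntn1, the netrin-1 gene, stood at 21.8 and 15.2 CPM in wt, 10.7 and 13.6 in het and 2.99 and 1.53 in KO, an 8.01-fold fall with no overlap of wt and KO, and Srgap1, which acts downstream of Robo receptors, fell 2.08-fold. On the list of 20 semaphorin, plexin and neuropilin genes 6 fell and 3 rose (5 and 6 with scaling by totals, and 5 and 1 without wt replicate 4). Plxnd1, the endothelial semaphorin receptor gene, stood at 1971 and 1809 CPM in wt and 719 and 612 in KO (edgeR adjusted p = 1.68e-10). Sema3g, which marks arterial endothelium, fell 8.46-fold, and Sema7a 5.14-fold.

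In VEGF signalling the ligands diverged. Vegfa, the main sprouting factor, stood at 37.7 and 44.9 CPM in wt and 95.1 and 101 in KO, a rise of 2.39-fold with no overlap (edgeR adjusted p = 1.47e-05). Vegfc, which acts on lymphatic and coronary endothelium, stood at 88.2 and 92.4 CPM in wt, 66.2 and 46.4 in het and 11.6 and 16.3 in KO, and fell 6.53-fold. The receptor gene Flt4 rose 1.51-fold. Kdr, the main VEGF receptor gene, rose 1.35-fold, and Flt1, which encodes a decoy receptor, fell 1.39-fold. The coreceptor gene Nrp2 rose 1.39-fold. The Kdr call was lost without wt replicate 5 (adjusted p = 0.0913) and that of Flt1 without wt replicate 4 (0.112), while Nrp2 lost its call without wt replicate 5 or KO replicate 2 (0.109 and 0.0503). In all 4 of 9 genes rose and 2 fell, and 2 rose without wt replicate 5, while 1 fell without wt replicate 4. On the list of angiopoietin and Tie genes, Tek rose and Ptprb fell, the latter with the limit given above. Angptl4, an angiopoietin-like gene on that list whose product inhibits lipoprotein lipase, rose 1.56-fold.

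Of 30 genes of BMP and TGF-β signalling 11 fell and 4 rose. With scaling by totals 5 fell and 10 rose, and without wt replicate 4 the falls numbered 5. Without wt replicate 5 or KO replicate 2 there were 2 rises. Bmpr2, the type 2 BMP receptor gene, stood at 149 and 128 CPM in wt and 32.9 and 27.8 in KO (log2 fold change -2.19 ± 0.16), and the ligand gene Tgfb1 fell 2.86-fold. Bmp6, a ligand made by endothelium, stood at 5.14 and 8.23 CPM in wt and 21.3 and 28.5 in KO and was among the largest rises of all genes (3.82-fold). The signal transducer gene Smad1 rose 1.93-fold.

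Of the transcription factor families that endothelium uses, Klf, Sp, Sox and forkhead genes were mostly lower where they changed by this scaling and ETS genes were not. Of 16 Klf and Sp factors 7 fell and 1 rose, with a median of -0.63. Klf4, a factor raised by blood flow, stood at 47.1 and 43.7 CPM in wt and 5.97 and 5.26 in KO, an 8.02-fold fall (edgeR adjusted p = 1.18e-08), and Klf13 and Sp1 fell 2.49-fold and 2.12-fold, while Klf10 rose 1.60-fold. However, 13 of these 16 genes hold a run of 6 cytosines in their longest transcript, and of the other 3 genes 1 rose. Of 8 Sox factors 5 fell and none rose (0, 0 and 0), led by Sox11 (2.43-fold) and Sox4, and there were 2 falls without wt replicate 4 or KO replicate 2 and 3 without wt replicate 5 or by DESeq2. Scaling by totals and removing the C-rich trend each left 2 falls, and 6 of the 8 genes hold a run of 6 cytosines. Of 17 ETS factors 5 rose, among them Ets1 (1.5-fold) and Ets2 (1.45-fold), and 3 fell (3 rises without wt replicate 5 or KO replicate 2). Of 15 forkhead genes 6 fell and none rose (1, 0 and 0), with Foxk1, a regulator of glycolysis, 3.89-fold lower, but with scaling by totals 5 rose and 2 fell, and the falls numbered 3 when wt replicate 4 or KO replicate 2 was left out.

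The extracellular matrix changed with rises in the majority. Of 28 basement membrane genes 13 rose and 5 fell. Emilin1, a glycoprotein of elastic fibres, stood at 250.4 and 241 CPM in wt and 651 and 598 in KO (log2 fold change 1.34 ± 0.10), and P4ha1, which hydroxylates collagen, rose 2.15-fold. Col15a1, a collagen between basement membrane and stroma, went against them, from 453 and 437 CPM to 53.1 and 49.9, 8.63-fold lower (edgeR adjusted p = 1.64e-11). Without wt replicate 5 or without KO replicate 1 there were 8 rises, and leaving out either wt replicate or KO replicate 2 gave 3 falls.

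Myc, a driver of cell growth, rose, while its network moved in both directions. Myc stood at 60.4 and 56.3 CPM in wt, 115 and 122 in het and 152 and 161 in KO. The 3 genotypes were separate and rose with each lost allele, and KO was 2.68-fold above wt (log2 fold change 1.42 ± 0.13, edgeR adjusted p = 7.07e-08). Mycn, its close relative, stood at 34.7 and 39.9 CPM in wt and 88.4 and 74.3 in KO. Mxd4, which competes with Myc for Max and represses its targets, went from 95.5 and 106 CPM to 32.5 and 25.3, 3.46-fold lower (adjusted p = 4.48e-08). Trrap, a large cofactor that Myc recruits, fell 2.96-fold. Max rose 1.79-fold and Mxi1, another competitor for Max, 1.66-fold, but without wt replicate 4 their adjusted p were 0.232 and 0.0578. In all, 5 of 17 network genes rose and 6 fell. Scaling by totals gave 9 and 4, and without wt replicate 4 there were 2 of each.

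Ribosome biogenesis genes rose: 36 of 72, against 3 that fell and a background of 14.7% for rises, with a median log2 fold change of 0.50. Ncl, the nucleolar protein nucleolin, stood at 468 and 435 CPM in wt and 775 and 783 in KO. Rrp12, which exports ribosomal subunits, stood at 17.6 and 13.9 CPM in wt, 17.8 and 13.6 in het and 45.7 and 45.1 in KO, 2.84-fold higher, and the processing factors Nol6 and Bop1 rose 2.57-fold and 2.06-fold. In each case the KO libraries were above all others. Of the 58 members without a run of 6 cytosines 28 rose and 3 fell. Leaving out wt replicate 4 gave 25 rises and 1 fall. RNA polymerase I and III subunits gave 6 rises and 2 falls of 33, and 2 rose without wt replicate 5 and 3 without wt replicate 4. The largest such rise, Polr3g, was 3.48-fold, with edgeR adjusted p = 0.0549 without wt replicate 4.

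Genes that charge transfer RNAs in the cytosol rose almost as a whole, 19 of 23 with 1 fall and a median of 0.60. Vars, for valine, stood at 165 and 168 CPM in wt and 322 and 324 in KO, and Iars (isoleucine), Aars (alanine) and Yars (tyrosine) rose 1.77-fold, 1.69-fold and 1.84-fold. Of the 16 mitochondrial counterparts 3 rose and none fell (0, 0 and 0).

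The E-box CACGTG, the letters that Myc and Max bind, was searched on both strands in windows of 300 bases around RefSeq starts (250 before to 50 after, GRCm38.p6). It occurred in 10.1% of the 10958 windows of genes tested and 7.15% of all 32851 windows. The share was 12 of 68 windows of ribosome biogenesis genes (17.6%) and 4 of 16 of the synthetases (25%), and it was 11.4% for genes that rose and 8.83% for genes that fell. The letters do not mark direction gene by gene, since Mxd4, which fell, holds them too. The stretches below, from RefSeq, were chosen after their values were seen because they lie wholly upstream of a gene that rose, with the E-box in capitals.
Nop2: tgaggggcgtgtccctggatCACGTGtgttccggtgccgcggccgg
Imp4: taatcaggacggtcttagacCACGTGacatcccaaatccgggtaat
Iars: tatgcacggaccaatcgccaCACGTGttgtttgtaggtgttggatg
Aars: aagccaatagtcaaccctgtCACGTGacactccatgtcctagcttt
They lie at chr6:125131803-125131848, chr1:34439688-34439733, chr13:49682041-49682086 and chr8:111033676-111033721, each on the plus strand, with the E-box starting 60, 121, 69 and 146 bases before the gene's start in that order. Nop2, a methyltransferase of ribosomal RNA, had a log2 fold change of 1.34, Imp4, a factor of small-subunit processing, 0.59, Iars 0.83 and Aars 0.76.

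Ribosomal proteins themselves went the opposite way from the genes that build ribosomes. Of 79 tested, 41 fell and 3 rose, with a median log2 fold change of -0.37. Rps4x stood at 705 and 782 CPM in wt, 758 and 728 in het and 316 and 348 in KO, with no overlap, and Rpl23a fell 2.15-fold. This balance depended on processing: scaling by totals gave 15 rises and 15 falls, removing trends with GC content and transcript length 15 and 25, and without wt replicate 5 there were 26 falls. There was 1 rise without wt replicate 4. Ribosomal protein messages are short, and calls varied with transcript length, as described below. Their genes also have many near-identical pseudogenes among which reads are shared. Initiation factors split evenly, 12 higher and 12 lower of 50 (7 and 7 without wt replicate 4). Eif3j1 stood at 78.8 and 86.7 CPM in wt, 39.2 and 33.5 in het and 6.62 and 8.31 in KO, an 11.1-fold fall that stepped down with allele number, whereas Eif3b, another subunit of the same initiation complex, rose 2.47-fold. The poly(A)-binding protein gene Pabpc1 fell 3.31-fold (edgeR adjusted p = 1.54e-11), and the elongation factor gene Eef1a1 1.90-fold.

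Of 61 replication genes 30 rose and none fell (1, 0 and 0), with a median of 0.49. Pold1, the catalytic subunit of a replicative polymerase, stood at 56.5 and 56.3 CPM in wt, 61.2 and 72.9 in het and 159 and 156 in KO, so that KO was 2.79-fold above wt and apart from every other library (edgeR adjusted p = 8.16e-08). The helicase genes Mcm2, Mcm4 and Mcm5 rose 2.29-fold, 2.02-fold and 1.80-fold. E2F factors drive these genes at the entry to S phase, and the E2F letters TTTGGCGC, TTTCCCGC or TTTCGCGC on either strand stood in 19 of the 62 promoter windows of this list (30.6%), against 3.65% of windows of all genes tested and 1.84% of all windows. Shares were 4.99% in genes that rose and 2.7% in genes that fell. The 3 letter sets can overlap one another on opposite strands, so windows and not sites were counted. Genes of this list that were not called hold the letters too, among them Cdt1 and E2f7 (log2 fold change 0.14 and 0.2). The stretches below, from RefSeq (GRCm38.p6), come from genes that rose and were chosen after their values were seen. Their letters lie wholly upstream of the start and are in capitals, in Cdc6 as read from the opposite strand.
Mcm5: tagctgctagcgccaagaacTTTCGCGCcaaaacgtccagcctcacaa
Mcm6: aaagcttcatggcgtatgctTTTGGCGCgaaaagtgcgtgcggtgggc
Cdc6: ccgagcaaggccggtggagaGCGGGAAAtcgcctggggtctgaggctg
They lie at chr8:75109336-75109383 (plus strand, 153 bases before the start), chr1:128359788-128359835 (minus strand, 110 bases) and chr11:98907993-98908040 (plus strand, 138 bases). Mcm6, of the same helicase as Mcm5, had a log2 fold change of 0.71, and Cdc6, which loads that helicase on DNA, 1.17.

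Mitosis genes rose in 38 of 62 cases with 1 fall and a median of 0.59. Plk1, a kinase that drives mitotic entry, stood at 73.2 and 81.0 CPM in wt, 142 and 119.7 in het and 176 and 169 in KO. Its het libraries lay between the other groups, and KO was 2.25-fold above wt (edgeR adjusted p = 8.73e-07). Kif2c, a microtubule-depolymerising kinesin, stood at 53.5 and 44.9 CPM in wt and 120.3 and 118 in KO, and Mybl2, a component of the complex that activates mitotic genes, rose 2.39-fold. That complex reads the CHR letters TTTGAA next to CCAAT boxes bound by NF-Y. Both letter sets, on either strand, stood together in 32 of 55 windows of this list (58.2%), against 4.92% of windows of genes tested and 6.95% of all windows. Singly, CHR stood in 70.9% of the list's windows against 11.9% of those tested (17.9% of all windows), and CCAAT also in 70.9% against 37.9% (37.4% of all). The letters do not mark direction gene by gene. Mki67 and Cdk1 of this list hold both and were not called (log2 fold change -0.47 and 0.17). The stretches below, from RefSeq (GRCm38.p6), come from genes that rose and were chosen after their values were seen. Each shows 1 pair in capitals, with CCAAT in Espl1 and Ncapd2 on the opposite strand (ATTGG).
Cdc20: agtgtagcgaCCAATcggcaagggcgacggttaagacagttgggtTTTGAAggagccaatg
Espl1: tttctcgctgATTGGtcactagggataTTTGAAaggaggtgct
Ncapd2: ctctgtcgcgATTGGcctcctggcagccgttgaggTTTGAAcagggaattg
They lie at chr4:118437346-118437406 (minus strand), chr15:102296239-102296281 (plus strand) and chr6:125191694-125191744 (minus strand). Cdc20, an activator of the anaphase-promoting complex, had a log2 fold change of 0.57, Espl1, the protease separase, 1.12 and Ncapd2, a condensin subunit, 1.01.

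Other cell cycle genes gave smaller counts. Of 26 G1 cyclins and Cdk inhibitors 3 rose and 1 fell. Ccne2, an S-phase cyclin, rose 2.08-fold and its kinase Cdk2 1.76-fold, while Ccnd2, a D-type cyclin, went from 208 and 235 CPM in wt to 117 and 100.3 in KO, 2.04-fold lower. The other rise was that of Ccng2, an atypical cyclin (1.92-fold). DNA repair genes rose in 12 of 42 cases with 1 fall (8 rises without wt replicate 4). Parp1 and the mismatch repair gene Msh6 rose 2.61-fold and 2.19-fold, and the fall was that of Ung, a uracil glycosylase (7.34-fold). Replication-dependent histones, whose messages normally lack a poly(A) tail and are therefore poorly captured by poly(A) priming, did not follow replication: 9 of 21 fell and none rose (0, 0 and 0), with Hist1h4c at 15.4 and 8.86 CPM in wt and 1.43 and 1.02 in KO. Of these falls 1 was called when genes with under 10 counts in any library were left out, and 6 without wt replicate 4. These are gene copies with near-identical sequence, so single members are uncertain.

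**Figure D3:**
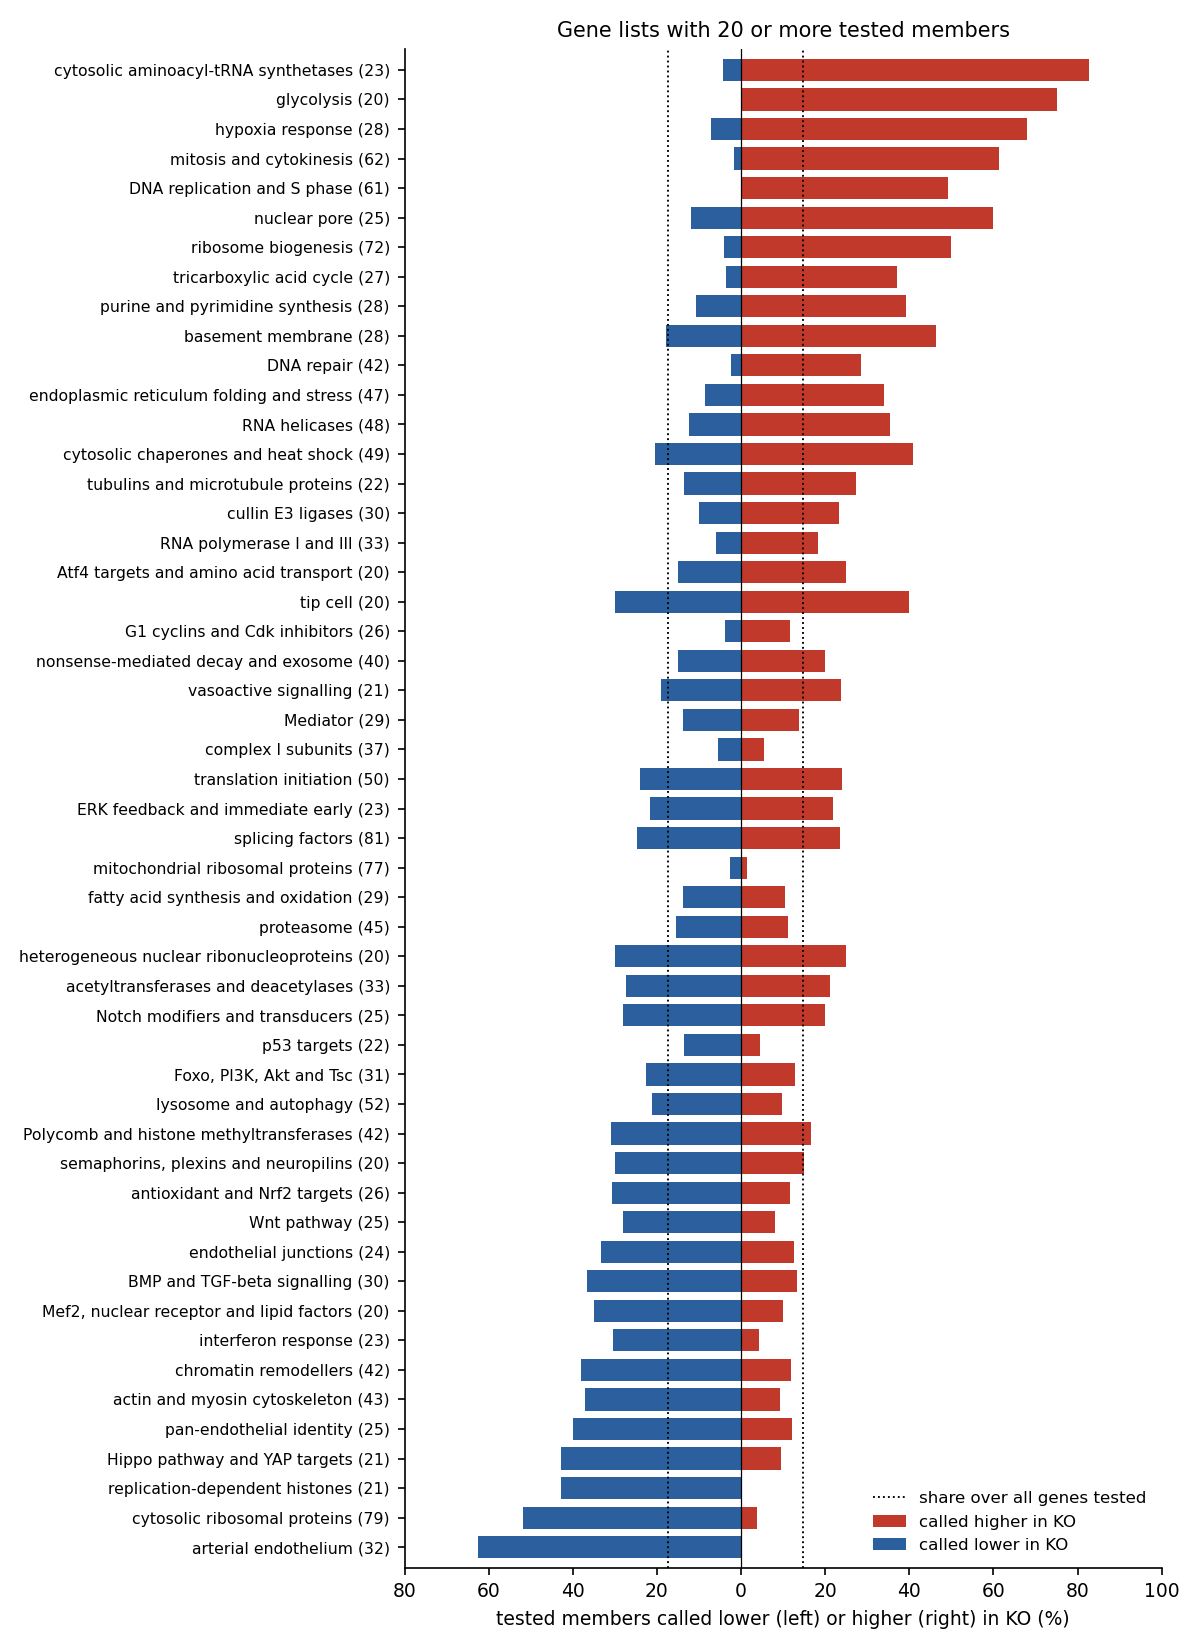
Share of tested members called higher (right, red) or lower (left, blue) in KO for 51 lists with 20 or more tested members, with the number tested in brackets and the share over all genes tested as dotted lines. Mitosis, glycolysis, synthetases, hypoxia response and nuclear pore lie farthest to the right, and arterial endothelium and ribosomal proteins farthest to the left.

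Carbon metabolism rose at the level of glycolysis. Of 20 glycolytic genes 15 rose and none fell (1, 0 and 0), with a median of 0.70. Pfkl, an isoform of the committing enzyme phosphofructokinase, stood at 261 and 239.8 CPM in wt and 580.0 and 598 in KO, with the het libraries at 254 and 239, close to wt. The lactate exporter gene Slc16a3 rose 2.66-fold, Pkm, the gene of pyruvate kinase, 1.77-fold and Hk1, of hexokinase, 1.96-fold. Of the 12 members without a run of 6 cytosines 8 rose. In the pentose phosphate pathway, which branches off glycolysis, 2 of 10 rose and 3 fell (4 and 2 with scaling by totals). Rpia, which makes ribose 5-phosphate, stood at 15 and 11.4 CPM in wt, 10.7 and 17.1 in het and 0.779 and 0.848 in KO (log2 fold change -3.98 ± 0.52), and Pgls and Taldo1 fell 1.71-fold and 1.55-fold. Prps1, which activates ribose for nucleotide synthesis, rose 1.57-fold and G6pdx, the entry enzyme, 1.47-fold, but G6pdx was not called after leaving out wt replicate 4, wt replicate 5 or KO replicate 2 (edgeR adjusted p = 0.332, 0.0574 and 0.251) and Prps1 without wt replicate 5 or KO replicate 1 (0.208 and 0.0735).

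Hypoxia-responsive genes rose in 19 of 28 cases with 2 falls (median 0.73). Bnip3, a mitochondrial protein of the hypoxia response, stood at 62.1 and 47.5 CPM in wt and 154 and 162 in KO, and Ak4, a mitochondrial adenylate kinase, rose 3.50-fold. The falls were Epas1 and Ddit4, an inhibitor of mTORC1 signalling, which stood at 46.7 and 38.0 CPM in wt and 8.31 and 4.75 in KO. The list shares members with glycolysis, so the counts of the 2 lists are not independent. The same holds for other groups, such as the arterial and tip cell lists and the identity and junction lists. It also holds for the nuclear pore list and the Nup family. Of 27 genes of the tricarboxylic acid cycle and linked reactions 10 rose and 1 fell. The rises included Sdha (1.81-fold) and Acly, a cytosolic enzyme that makes acetyl-CoA from citrate (2.12-fold). Nuclear-encoded subunits of complexes I, III and IV and of ATP synthase hardly passed. Of 37 in complex I 2 rose and 2 fell, and of 10 in complex III none passed. In complex IV 1 rose and 3 fell of 11, and in ATP synthase 3 and 3 of 18. For complex III the bracketed counts were (1, 0 and 0) for rises and (0, 0 and 0) for falls. Scaling by totals turned these into 17, 6, 6 and 11 rises. Of 13 messages encoded by mitochondrial DNA 1 fell and none rose (0, 0 and 0), with a median of -1.02. Both KO libraries lay below both wt libraries for 11 of them, and DESeq2 called 4 falls. Of 77 mitochondrial ribosomal proteins 1 rose and 2 fell (21 and 0 with scaling by totals).

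Genes of nucleotide precursor synthesis rose more often than they fell. Of 19 serine and one-carbon enzymes 8 rose and none fell (0, 0 and 0), and 4 rose without wt replicate 5 or KO replicate 2. Shmt1, which moves a carbon from serine to folate in the cytosol, stood at 9.85 and 8.86 CPM in wt, 18.5 and 18.5 in het and 36.0 and 35.5 in KO. Its 3 genotypes were separate, and KO was 3.78-fold above wt (edgeR adjusted p = 8.52e-06). Mthfd1 rose 2.22-fold. Of 28 purine and pyrimidine synthesis genes 11 rose and 3 fell, with Gart, of the purine pathway, 2.24-fold higher and Atic, which completes that pathway, at 77.9 and 84.2 CPM in wt and 24.5 and 23.6 in KO, 3.35-fold lower. Without wt replicate 4 or either KO replicate 1 fall was called. Polyamine genes moved in both directions. Odc1, the rate-limiting enzyme of synthesis and a known Myc target, stood at 442 and 521 CPM in wt, 721 and 639 in het and 1287 and 1564 in KO, rising at each step. Sat1, which starts polyamine breakdown, stood at 406 and 428, 329.8 and 287 and 99.9 and 93.3 CPM in the same order and fell 4.31-fold (adjusted p = 8.23e-12). Smox, an oxidase that also breaks polyamines down, rose 1.67-fold and Oaz2 fell 1.47-fold, and over the 14 genes 3 rose and 2 fell.

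Protein folding genes rose more often than they fell. Of 49 chaperone and heat shock genes 20 rose and 10 fell (13 and 5 without wt replicate 4, 11 and 7 without KO replicate 2, 18 and 6 without KO replicate 1). Hspa9, the mitochondrial HSP70, stood at 228 and 222 CPM in wt and 491 and 512 in KO, and Stip1 rose 2.09-fold, but Dnajb12, a cochaperone of the endoplasmic reticulum membrane, fell 3.38-fold. Of 47 genes of folding and stress in the endoplasmic reticulum 16 rose and 4 fell, among them Pdia4 (1.96-fold) and Hspa5, its main HSP70 (1.56-fold), and without wt replicate 4 there were 2 falls. Proteasome subunits gave 5 rises and 7 falls of 45, and 22 and 1 with scaling by totals. There was 1 fall without wt replicate 4. Lysosome and autophagy genes gave 5 rises and 11 falls of 52, and 21 and 4 with scaling by totals. The cholesterol exporter gene Npc1 fell 3.09-fold. Without wt replicate 4 or KO replicate 2 the rises came to 1, and without wt replicate 4 the falls to 7.

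Nuclear transport and RNA handling changed by subunit. Of 25 nuclear pore genes 15 rose and 3 fell, with a median of 0.55. Nup107, a scaffold subunit, stood at 43.7 and 39.2 CPM in wt, 54.8 and 47.5 in het and 103 and 89.9 in KO, and Nup160 of the same scaffold rose 2.08-fold. Without wt replicate 5 there were 9 rises, and 1 fall was called without wt replicate 4, without wt replicate 5 or without KO replicate 2. Of 81 splicing factors 19 rose and 20 fell, and scaling by totals gave 42 and 5. Sf3b3 and Eftud2, of the core spliceosome, rose 2.15-fold and 2.1-fold, and Luc7l3 fell 2.76-fold. Leaving out wt replicate 4 gave 11 rises and 8 falls, without wt replicate 5 11 rises, and without KO replicate 2 11 falls. RNA helicases rose in 17 of 48 cases and fell in 6, with Dhx38, a splicing helicase, 2.36-fold higher. The related helicases Ddx5 and Ddx17 fell together, Ddx5 from 1395 and 1413 CPM in wt to 515 and 521 in KO and Ddx17 from 166 and 204 to 55.8 and 70.1. Without wt replicate 4 or wt replicate 5, 11 and 10 rises were called, and without KO replicate 2 there were 3 falls. Upf1, the helicase of nonsense-mediated decay, rose 2.53-fold, and its kinase gene Smg1 fell 2.57-fold.

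Chromatin genes changed in both directions. Of 42 chromatin remodellers 16 fell and 5 rose. Chd4, the ATPase of the NuRD complex, stood at 221 and 184 CPM in wt and 77.0 and 67.2 in KO. In the same complex Mta1 fell 3.65-fold and Mta2 rose 2.32-fold. Scaling by totals turned the balance to 16 rises and 11 falls, and removing trends with GC content and length to 13 and 12. The falls numbered 10 without wt replicate 4. Of 42 histone methyltransferases and Polycomb genes 13 fell and 7 rose (11 and 14 with scaling by totals). Setd1a and Setd1b, which methylate lysine of histone H3 at active promoters, had the largest falls here. Setd1a stood at 40.7 and 43.7 CPM in wt, 43.4 and 52.7 in het and 4.81 and 3.73 in KO, and Setd1b at 20.5 and 24.7, 23.5 and 35.2 and 1.3 and 1.36, so both were near 0 in KO alone. The demethylase gene Kdm6b fell 5.10-fold, and 7 of 19 demethylases fell while 3 rose (4 and 7 with scaling by totals). Without wt replicate 4 or 5 the demethylase rises came to 1. Dnmt1, which maintains DNA methylation during replication, rose 2.18-fold. Of 18 cohesin and condensin genes 5 rose and 5 fell (10 and 3 with scaling by totals, 3 rises without wt replicate 5 or KO replicate 1, 3 falls without wt replicate 4). Among the falls Rad21 and its loader Nipbl fell 2.41-fold and 2.56-fold. Many of these messages hold runs of cytosines: of the 19 remodellers without a run of 6, 4 fell and 3 rose.

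The cytoskeleton and its regulators held some of the largest falls. Rhob, a small GTPase of endosomes and junctions, stood at 429 and 395 CPM in wt, 345 and 334 in het and 58.4 and 63.6 in KO, a fall of 6.76-fold with the KO libraries far from the other 4 (edgeR adjusted p = 1.87e-13). Arhgef7, an exchange factor for Rac and Cdc42, fell 11.1-fold, and Tiam1, another Rac activator, 5.34-fold, while Rnd3, which antagonises RhoA, rose 3.12-fold. Of 43 actin and myosin genes 16 fell and 4 rose (5 and 13 with scaling by totals, and 9 of each with the C-rich trend removed). The paralogues Actn1 and Actn4, which crosslink actin, went apart. Actn1 stood at 186 and 187 CPM in wt and 30.9 and 31.7 in KO, and Actn4 at 776 and 782 and 1313 and 1223. In both genes the wt libraries differed little, so the gaps exceeded the spread between libraries (log2 fold change -2.57 ± 0.13 and 0.70 ± 0.09).

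Imprinted growth genes fell in 7 of 17 cases and none rose (0, 0 and 0), with a median of -0.51. Igf2, a fetal growth factor, stood at 3217 and 3092 CPM in wt, 3059.6 and 2354 in het and 405 and 369 in KO, and its neighbour H19, a non-coding RNA expressed from the other parental copy, at 4201 and 4426, 4706 and 3529 and 572 and 420.2. Both were low in KO alone, 8.15-fold and 8.69-fold below wt (edgeR adjusted p = 1.13e-11 and 0.000591), and Peg10, an imprinted gene that the placenta needs, fell 8.75-fold. Without wt replicate 5 or KO replicate 2 the list had 4 falls, and scaling by totals gave 4 falls and 3 rises. Sod1, the cytosolic superoxide dismutase, fell from 217 and 239 CPM in wt to 55.7 and 52.8 in KO, and 8 of 26 antioxidant genes fell with 3 rises (1 and 8 with scaling by totals). There were 3 falls and 1 rise without wt replicate 4, and without wt replicate 5, 4 fell and 2 rose. Without KO replicate 2, 5 fell.

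**Figure D4:**
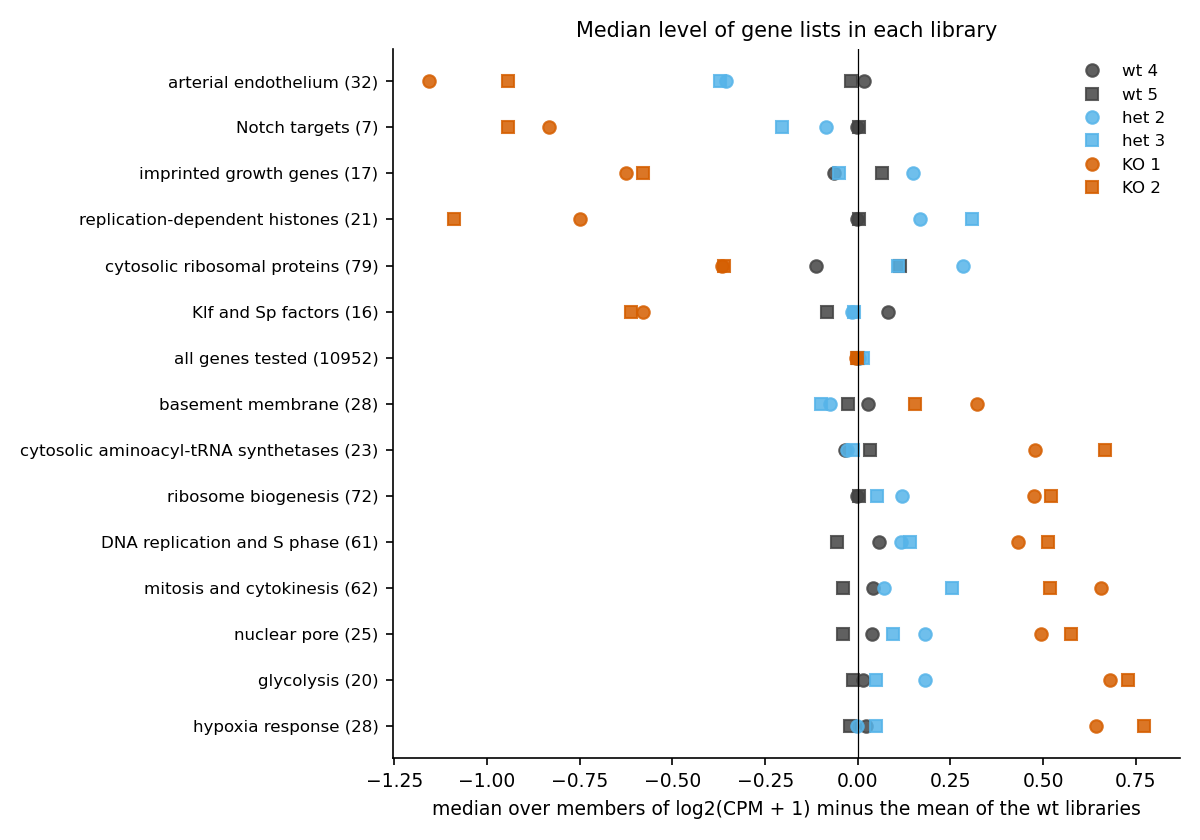
Median over members of log2(CPM + 1) minus the mean of the 2 wt libraries (horizontal axis) for 14 lists and all genes tested, 1 point a library, with the number of tested members in brackets. In each of the 14 lists both KO points lie beyond the wt points on 1 side, while for all genes they lie within 0.01 of 0, and in the arterial list the het points stand at -0.36 and -0.37, between wt and KO.

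Families of related symbols were also counted, 88 stems with 12 or more tested members. The largest shares of rises among these stems were in the Nup genes of the nuclear pore, with 12 of 19 higher, 2 lower and a median of 0.67, and in the Ints genes, with 8 of 15 higher, none lower (1, 0 and 0) and a median of 0.58. The Ints genes encode the Integrator complex, which trims small nuclear RNAs. Ints10 stood at 24.8 and 28.5 CPM in wt and 56.4 and 51.4 in KO, and Ints5 rose 1.81-fold. Of 12 Exoc genes, for the exocyst that tethers secretory vesicles, 5 rose and none fell (0, 0 and 0), led by Exoc1 (1.80-fold). The Ptpn family of protein tyrosine phosphatases went the other way, with 7 of 12 lower, none higher (0, 0 and 0) and a median of -0.80. Ptpn23, which sorts receptors in endosomes, stood at 43.7 and 34.2 CPM in wt and 10.9 and 13.7 in KO. Solute carriers, the largest functional family counted, gave 41 rises and 17 falls of 177, with the monocarboxylate carrier gene Slc16a1 at 13.3 and 17.1 CPM in wt and 54.7 and 51.7 in KO and the zinc transporter gene Slc39a1 11-fold lower. Kinesins gave 9 rises and 5 falls of 26. The mitotic kinesin gene Kif18b rose 2.69-fold and Kif1c, which carries cargo outside mitosis, fell 8.12-fold. Of 284 Zfp genes, mostly zinc finger factors of low level, 15 rose and 34 fell, and of 37 Zbtb genes 8 fell and none rose (1, 0 and 0). Of 18 Atg autophagy genes none rose (2, 0 and 0) and none fell (1, 0 and 0). The symbol rule groups genes by name, which is not always a shared function.

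The largest single changes were partly of other kinds. Vat1, a vesicle membrane protein, had the largest fall of a protein-coding gene under the naming rule after Lars2, from 174 and 169.6 CPM in wt and 152 and 139.6 in het to 3.77 and 3.56 in KO (log2 fold change -5.53 ± 0.18). Ctdsp1, a phosphatase that acts on the tail of RNA polymerase II, stood at 119.9 and 108, 109.7 and 105 and 5.58 and 3.56 CPM in the same order. Both were near 0 in KO and alike in wt and het. Bri3 and Ip6k2, the gene of an inositol phosphate kinase, had log2 fold changes of -4.33 and -4.32. Among the rises, Pdk4, which restrains entry of pyruvate into the tricarboxylic acid cycle, stood at 3.0 and 1.27 CPM in wt, 2.85 and 3.49 in het and 14.2 and 9.67 in KO (5.22-fold). A2m, a protease inhibitor, went from 0.856 and 1.27 CPM in wt to 9.09 and 12.6 in KO and was already at 8.55 and 5.93 in het. Wdfy1, an endosomal adaptor, stood at 11.6 and 13.9 CPM in wt, 62.7 and 50.3 in het and 55.7 and 48.2 in KO, so its het and KO libraries overlapped. Pakap was at 0 in the wt and het libraries and at 81.4 and 64.5 CPM in KO, at least 96.7-fold higher against a floor of 3 counts over the wt group, which covers counting error only. Its annotation overlaps other genes, so its reads are uncertain.

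Calls varied with properties of the transcripts that the gene lists do not describe. When genes were ranked by average level into 3 equal bins, rises and falls were called in 3.83% and 12.3% of the lowest bin and in 25.1% and 22.9% of the highest. In 4 bins of the length of the longest transcript, the shortest had 5.27% rises and 18% falls, the next 17.6% and 12.4%, the one after 23.4% and 13.7%, and the longest 12.6% and 25.1%. Falls were thus most common at both ends of the length range. By GC content the shares moved less, from 10.9% to 17.2% for rises and from 15.2% to 20.9% for falls. Genes whose longest transcript holds a run of 6 cytosines fell more often than the rest (22.9% of 4506 against 13.4% of 6418) and more often by at least 2-fold (12.8% against 5.19%), while rises were alike (14.4% and 14.9%). The gap in falls was present in each of the 4 bins of length. With such genes left out 1755 genes were called, 845 higher and 910 lower. In het against wt the genes that fell at least 4-fold in KO had a median log2 ratio of -0.05. The part of this pattern in the results was not tested.

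**Figure D5:**
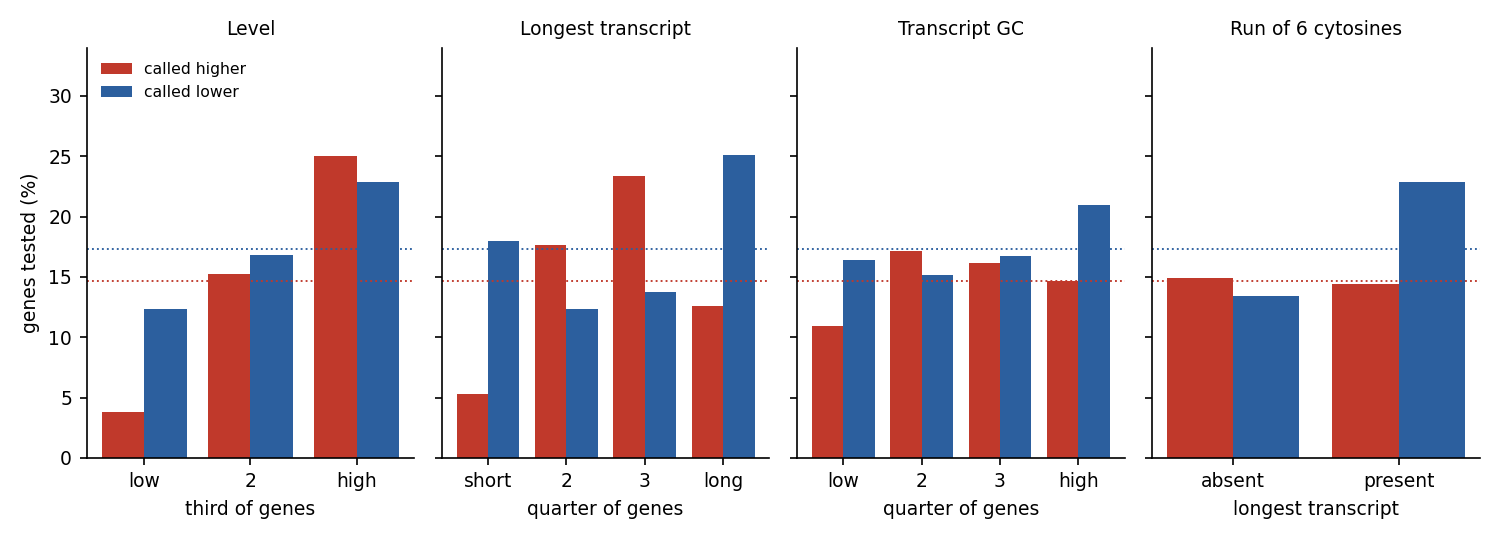
Share of genes tested (vertical axes, %) called higher (red) or lower (blue) in KO by average level (3 bins), transcript length and GC content (4 bins each) and presence of a run of 6 cytosines, with the shares over all genes as dotted lines of the same colours. Falls reach 25.1% in the bin of longest transcripts and 22.9% with a run of cytosines.

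Markers of other cell types were followed through the same libraries. Of 12 cardiomyocyte genes tested, out of 18 listed, 4 fell and 1 rose (2 falls without any 1 of the 4 libraries), and their summed level lay between 316 and 357 CPM in wt, 416 and 469 in het and 367 and 400.1 in KO. Of 17 mural cell and fibroblast genes 11 were tested, 3 fell and 1 rose, and the sums were 427 and 438 CPM in wt, 470.1 and 600.3 in het and 198 and 365 in KO. The rise was that of Pdgfrb, the receptor gene of pericytes (edgeR adjusted p = 0.0174). It stood at 0 and 0.633 CPM in wt, 5.70 and 5.93 in het and 5.71 and 1.87 in KO. Its call was lost with DESeq2 and with limma-voom, and also without wt replicate 4 or without KO replicate 1. Macrophage genes summed to between 60.8 and 139.9 CPM in wt, 116 and 366 in het and 34.3 and 72.9 in KO, with 2 of 11 lower and none higher (0, 0 and 0). Erythroid genes summed to between 161 and 425 CPM in wt, 251 and 383 in het and 191 and 288 in KO, and of 8 tested none rose (0, 0 and 0) or fell (0, 0 and 0). Of 8 epicardial genes 1 was tested. All 7 liver genes were below the filter on low counts, and 6 of them were at 0 counts in the 4 libraries compared. Of 18 genes of the dissociation response 6 rose and 2 fell (1 and 1 without wt replicate 4, 2 and 3 without KO replicate 1), with sums of 1660.2 to 1855 CPM in wt and 1744 to 1788 in KO. Xist, the RNA that coats a silenced X, stood at 62.5 and 110.1 CPM in wt, 279 and 229 in het and 30.1 and 22.2 in KO and fell (edgeR adjusted p = 0.00722). The part of these levels in the results was not tested.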

How the data were processed

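Heart endothelial cells were sorted from mouse embryos, and RNA was amplified with SMART-Seq v4 and sequenced on an Illumina HiSeq, per the labels' protocols. That kit primes on poly(A) and keeps no strand. The submitters' processing notes name CASAVA, cutadapt and RSEM without versions, and GRCm38. The authors deposited RSEM expected counts per gene, 1 column a library, under Ensembl identifiers. Of all values of a library, zeros included, between 4.29% and 5.87% were not whole, and all were rounded to whole counts. Of 41214 identifiers 97.9% matched GENCODE M21, which gave symbols, classes and transcripts.

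Libraries were scaled by TMM, with factors from 0.909 to 0.929 in wt and het and 1.19 in both KO libraries. Genes passing filterByExpr (minimum 10 counts) were fitted in edgeR 4.0.16 under R 4.3.3 (quasi-likelihood, robust, 3 groups, 6 libraries, 3 residual degrees of freedom), with Benjamini-Hochberg adjustment over 10952 genes. Alternatives used DESeq2 1.42.0, limma 3.58.1 and mgcv 1.9.3. The edgeR, DESeq2, limma, thinned and trend-removed fits of KO against wt were tested on simulated data. Tables were made with Python 3.11.15. The floor of 3 counts covers counting error only. The SE of a log2 fold change came from the edgeR test and so includes the spread between libraries. The smallest library held 1537908 counts and the largest 6501798, and the deeper KO libraries are measured more precisely at low levels.

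Named genes are Dll4, Gja5, Hey1, Myc, the 15 largest rises and falls among called genes whose groups do not overlap and whose average log2 CPM reaches 3, all members of the Notch, VEGF, angiopoietin, connexin, Myc, polyamine and pentose phosphate lists, the 6 lowest adjusted p of other lists, the extreme members of families, and members of lists of other cells, handling and makeup. A few genes and lists are not reported here, and Pecam1, Apln, Eln, Fbln2, Fbln5 and the promoter examples are outside the rule and were chosen after their values were seen. The members and lists were chosen with earlier results of these data known. Removing the trend with C-rich sequence and leaving out genes with a run of 6 C were alternatives chosen after seeing the data.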

Additional observations from a re-analysis of the deposited data

How the results depend on the processing

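The count of called genes stayed within 1.5 times of 3509 under 15 of the 17 alternatives, the exceptions being without wt replicate 4 (2043) and without genes that hold a run of 6 C. Scaling by totals gave 3878 rises, 1034 falls, 1217 rises and 570 falls of at least 2-fold, a median log2 fold change of 0.347 and another majority in 34 of 98 lists. The median was 0.0 with no filter and -0.007 with library makeup genes removed. It was 0.074 with trends of GC content and length removed and 0.062 with the C-rich trend removed. Leaving out genes with a run of 6 C, which tests fewer genes, gave 1755 calls, 845 rises, 910 falls, and 504 of at least 2-fold, 173 up and 331 down. Leaving out 1 library gave 2043 to 2724 calls, 984 to 1192 rises, 1059 to 1551 falls, 992 to 1196 changes of at least 2-fold (291 to 331 up, 661 to 905 down) and medians from -0.023 to 0.013. Of 192 called genes named, 84 were tested in all 17 alternatives, and 77 of these kept their call in each. The other 108 had no test in at least 1, 102 of them because they hold a run of 6 C, and 98 kept their call wherever they were tested. Chac1, named below, is not among the 192. The calls of Flt1, Nrarp, Oaz2 and Taldo1 were among those lost with scaling by totals. That of Xist was lost with trends of GC content and length removed and with libraries thinned to the smallest total. Among genes that were not called, Pecam1 turned to -0.07 with trends of GC content and length removed and Rbpj to 0.01 with scaling by totals. The causes were not tested. No paired analysis was possible because the wt and KO libraries share no replicate number. Among genes in the lowest bin of level 3.83% rose and 12.3% fell, against 25.1% and 22.9% in the highest, and the part of depth in this was not tested.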

Other observations

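Growth-control pathways outside those above held large changes in single genes. Of 21 genes of the Hippo pathway, which restrains growth by keeping the coactivator YAP out of the nucleus, 9 fell and 2 rose, although scaling by totals gave 5 and 8 and without wt replicate 4 or wt replicate 5 there were 5 falls. Tead1, a DNA-binding partner of YAP, stood at 47.1 and 39.2 CPM in wt, 47.0 and 36.3 in het and 9.48 and 7.97 in KO, and Sav1, a scaffold of the Hippo kinases, fell 4.66-fold. Both were low in the KO libraries alone. Of 31 genes of PI3K and Foxo signalling 7 fell and 4 rose (4 and 11 with scaling by totals, 3 falls without wt replicate 4 and 4 without KO replicate 2). Insr, the insulin receptor gene, went from 29.1 and 25.3 CPM in wt to 7.66 and 5.77 in KO (edgeR adjusted p = 1.71e-05). In the Wnt pathway 7 of 25 genes fell and 2 rose (1 and 5 with scaling by totals, and 3 falls without wt replicate 4 or wt replicate 5, 4 without KO replicate 2), and the coreceptor gene Lrp5 stood at 44.1 and 51.9 CPM in wt and 9.48 and 8.31 in KO. Spry2, which dampens ERK signalling, stood at 15.4 and 16.5 CPM in wt, 24.9 and 23.0 in het and 4.16 and 2.88 in KO.

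Transcripts that code for no protein fell more often than they rose. Of 61 lincRNA genes tested 18 fell and 1 rose with a median log2 fold change of -0.72, and of 57 processed pseudogenes 18 fell and 5 rose, whereas 1818 of 10623 protein-coding genes fell and 1594 rose. On chromosome 2 within 1 Mb of Dll4, 34 other genes were tested, of which 10 rose (29.4%) and 9 fell (26.5%), and within 10 Mb 137 were tested, of which 23 rose and 26 fell. Among them, Tmem87a stood at 4.28 and 5.06 CPM in wt, 14.2 and 17.1 in het and 38.6 and 52.6 in KO, 1.05 Mb from Dll4, and Tyro3, a receptor kinase gene, at 3.42 and 1.27, 7.12 and 7.33 and 14.7 and 14.1, 0.477 Mb away. Both stepped up with each targeted allele and are among the largest rises of all genes. Chac1, 0.0219 Mb from Dll4 and also among them, did not step in this way. It stood at 0.428 and 1.90 CPM in wt (4 counts over the group), 8.55 and 8.38 in het and 5.45 and 14.8 in KO. Its het and KO libraries thus overlapped.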
